A study of Homo sapiens with 2 samples.

Results

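The genes described here are 46 members of the NRF2 antioxidant programme and of the glutathione and thioredoxin systems. They were taken by symbol from a deposited table of 58302 genes, and each matched 1 row. The cells were Tu212, an established epithelial-derived line from a head and neck squamous tumour. In the PRMT5 overexpression group they had been treated for 48 h with the plasmid pEZ-PRMT5, and in the control group with pEZ-vector for the same time. Polyadenylated RNA was sequenced from 1 library per group, so no difference below has a replicate check and no p-value is given. What follows is a description of this pair of libraries, which cannot speak for the treatment in general.

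NRF2, the product of NFE2L2, is a transcription factor that is held low by KEAP1, a substrate adaptor of a CUL3 ubiquitin ligase. When electrophiles or oxidants modify KEAP1, NRF2 accumulates, pairs with a small MAF protein and binds antioxidant response elements near genes for glutathione synthesis, thioredoxin reduction, quinone and aldehyde reduction, NADPH supply and drug efflux. Squamous carcinomas often carry an active form of this programme. PRMT5 is an enzyme that methylates arginines of histones and splicing proteins.

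The PRMT5 overexpression library held 19908258 reads on genes and the vector control library 14119997. PRMT5 itself had 5770 reads (293 CPM) in the PRMT5 overexpression library and 2068 reads (145 CPM) in the vector control library, where CPM is reads per 1000000 library reads after TMM scaling. Its log2 ratio was 1.01 (95% counting interval 0.94 to 1.09). Every log2 ratio is of PRMT5 overexpression over vector control, with a prior count of 1 read on average. Intervals are exact binomial ones and cover counting error only. All 12 squamous and epithelial markers were read, and they summed to 12783 CPM in the PRMT5 overexpression library and 11608 CPM in the vector control library. Of 9 fibroblast markers 5 had 10 or more reads in a library, and these summed to 80.9 CPM in the PRMT5 overexpression library and 97.8 CPM in the vector control library. Nearly all of this was COL1A1, with 79.0 CPM under PRMT5 overexpression and 92.6 CPM in the control. Of the sparse fibroblast markers 3 were well lower: COL1A2 had 7 reads in the PRMT5 overexpression library and 26 in the vector control library, COL3A1 had 2 reads in the PRMT5 overexpression library and 11 in the vector control library, and DCN had 0 reads in the PRMT5 overexpression library and 12 in the vector control library. PDGFRB had 29 reads in the PRMT5 overexpression library and 25 in the vector control library, with an interval that includes 0. PDGFRA had 3 reads in each library. LUM had 1 and 4 reads and THY1 had 1 and 3, in the same order of libraries. For 2 of 6 leukocyte markers the sums were 16.4 CPM under PRMT5 overexpression and 20.9 CPM in the control. Nearly all of this was CD68, at 16.2 and 20.1 CPM in the same order of libraries. PTPRC had 4 reads in the PRMT5 overexpression library and 0 in the vector control library. For 2 of 5 endothelial markers the sums were 4.46 and 5.89 CPM in the same order, mostly from VWF at 3.50 and 4.70 CPM. FAP, CDH5 and KDR had 0 reads in both libraries. Whether any such cells were present, and what part they had in the results, was not tested.

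The core of the antioxidant response element, TGACNNNGC, was searched on both strands in RefSeq promoter windows of GRCh38.p14, from 250 bases before to 50 bases after each start. Windows were found for 36 of 46 members, and 10 of these, or 27.8%, held a match. Over all 27305 genes with a window the share was 16.1%. The matches are shown because they lie beside CBR1 and TXNRD1, which are among the 3 lowest members, as well as beside members near or above 0. Each is printed 5′ to 3′ on the strand that carries the core, with the core in capitals and 10 bases on each side.
CBR1 chr21:36069855-36069883 minus strand: ccagctagccTGACTTTGCagaacccgca
EPHX1 chr1:225825266-225825294 plus strand: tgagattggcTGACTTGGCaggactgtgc
GCLM chr1:93909446-93909474 plus strand: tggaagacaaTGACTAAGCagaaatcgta
GPX2 chr14:64942849-64942877 plus strand: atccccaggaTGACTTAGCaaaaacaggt
GSTA4 chr6:52995275-52995303 minus strand: ccgggaccgcTGACCTGGCgctttgtgcg
GSTP1 chr11:67583736-67583764 plus strand: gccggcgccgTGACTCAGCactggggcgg
KEAP1 chr19:10502784-10502812 plus strand: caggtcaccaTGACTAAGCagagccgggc
KEAP1 chr19:10502807-10502835 minus strand: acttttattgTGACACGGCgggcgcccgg
MGST1 chr12:16347135-16347163 plus strand: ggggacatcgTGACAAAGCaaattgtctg
PGD chr1:10398853-10398881 minus strand: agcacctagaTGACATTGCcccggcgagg
TXNRD1 chr12:104215670-104215698 plus strand: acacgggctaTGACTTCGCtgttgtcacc
TXNRD1 chr12:104215761-104215789 minus strand: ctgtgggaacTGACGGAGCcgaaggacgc
TXNRD1 chr12:104286920-104286948 minus strand: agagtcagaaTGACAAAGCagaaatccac

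The matches differ in the central bases of the core. GSTP1 alone among the members with a window held TGACTCAGC, a form found for 0.689% of all genes with a window. KEAP1 and GCLM shared TGACTAAGC. Members with and without a match overlapped widely: the 10 with a match had a median log2 ratio of 0.08, from -0.94 to 0.22, and the 25 tested members without one a median of 0.14, from -0.73 to 0.40. Members without a window, PRDX1 with the highest log2 ratio of 0.58 among them, are in neither group. A match is only a run of letters, and elements outside these windows were not searched. The stretch before the first annotated exon base of CBR1 is given at more length, with the same match in capitals as read on the opposite strand.
CBR1 chr21:36069774-36069940 plus strand: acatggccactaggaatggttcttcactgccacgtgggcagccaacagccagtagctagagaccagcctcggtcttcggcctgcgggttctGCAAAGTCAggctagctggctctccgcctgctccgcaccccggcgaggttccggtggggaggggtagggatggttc

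Of the 46 members, 45 had 10 or more reads in at least 1 library, and the fewest reads of any of these were 132 in the PRMT5 overexpression library and 84 in the vector control library. GPX3, the plasma glutathione peroxidase, had 4 reads in the PRMT5 overexpression library and 2 in the vector control library and was not carried further. The members' median log2 ratio was 0.14, against 0.002 over all 17777 genes with as many reads. Of the 45, 34 were above 0, as were 50.4% of all genes, and 11 were below 0, as were 49.6%. The counting interval lay wholly above 0 for 27 members and wholly below 0 for 6, against 14.3% of all genes on each side. Members are read more deeply than most genes. Of 4118 genes whose reads averaged 1000 or more over the libraries, 52.9% were above 0 and 47.1% below, with intervals above 0 for 27.5% and below 0 for 22.5%. Of the 37 members at that depth, 28 were above 0 and 9 below, with intervals above 0 for 26 and below 0 for 6. A similar tilt was seen outside the members. The 12 squamous and epithelial markers had a median of 0.14, with 10 above 0, and intervals above 0 for 9 and below 0 for 2.

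No member was 1.5-fold or more higher, where 7.06% of all genes and 1.46% of the deeply read genes were. NFE2L2 and CBR1 were 1.5-fold or more lower, where 5.33% of all genes and 1.17% of the deeply read genes were. At 2-fold no member was higher, where 2.9% of all genes and 0.389% of the deeply read genes were, and none was lower, where 1.94% and 0.461% were. The other 43 members ran from -0.37 to 0.58 on the log2 scale. The members together took 1.76% of the reads in the PRMT5 overexpression library and 1.65% in the vector control library. In these bulk libraries, fewer cells expressing a gene and less RNA per cell cannot be told apart.

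**Figure D1:**
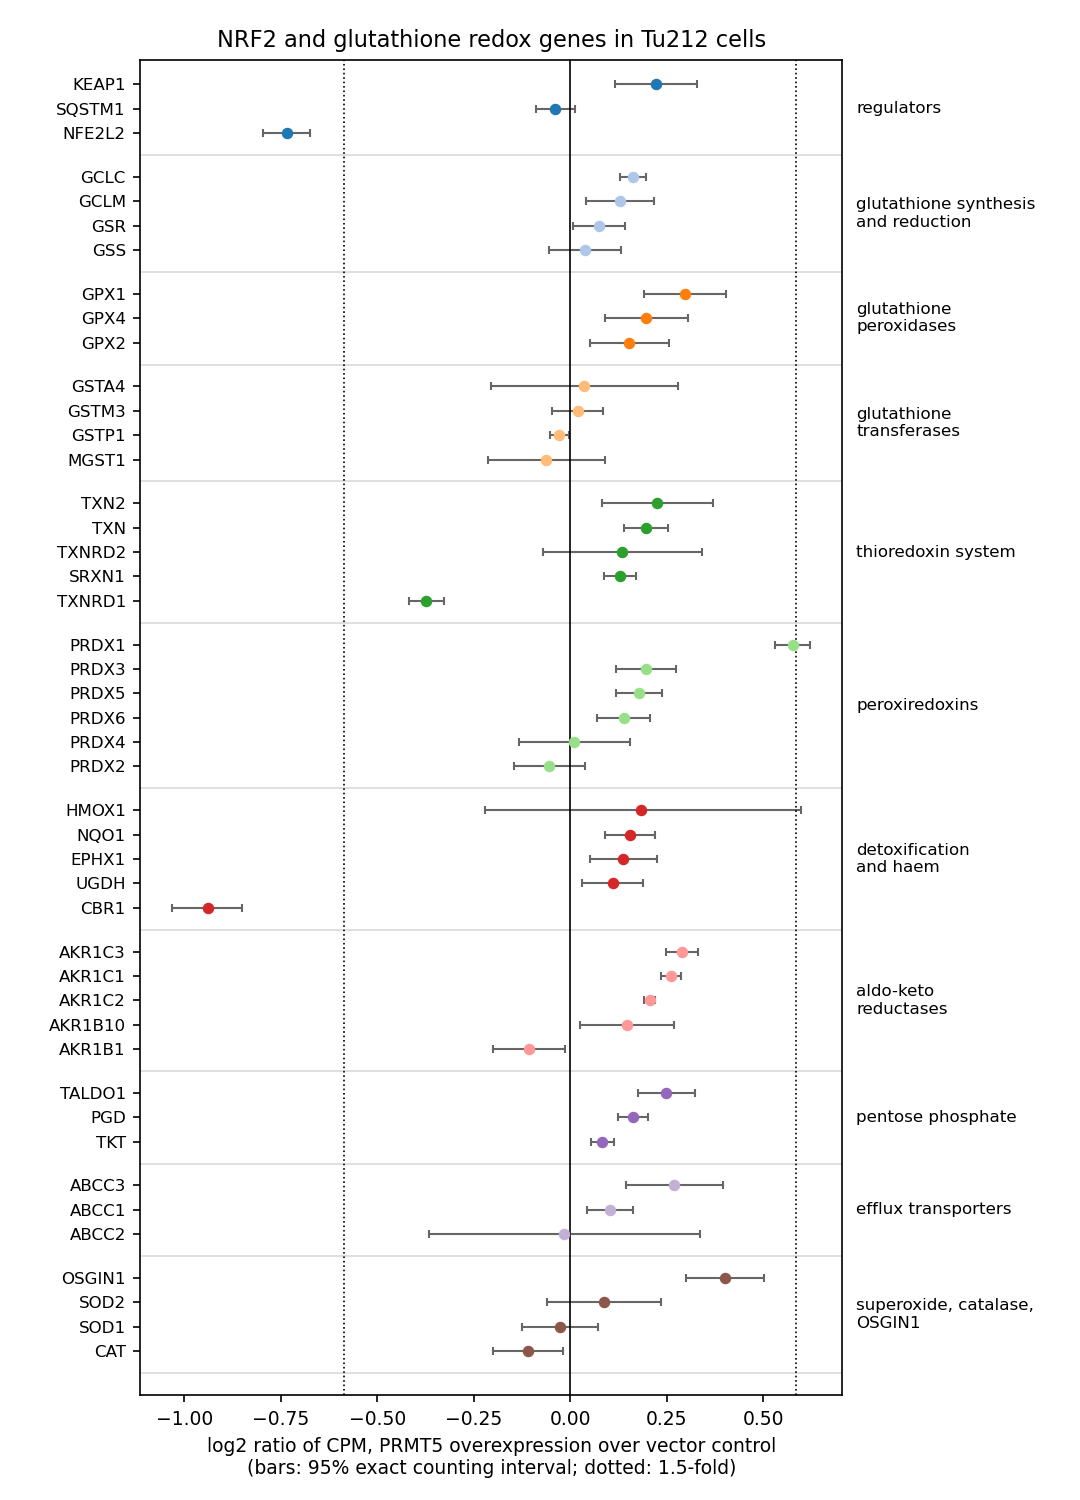
Log2 ratio of CPM, PRMT5 overexpression over vector control, for the 45 tested members by role, with bars for 95% exact counting intervals and dotted lines at 1.5-fold (1 library per group). NFE2L2 and CBR1 lie beyond the dotted line on the left, PRDX1 at 0.58 lies just inside the one on the right, and 34 points lie above 0.

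Among the regulators, the transcript of the transcription factor was lower and that of its inhibitor slightly higher. NFE2L2 had 4104 reads (208 CPM) in the PRMT5 overexpression library and 4941 reads (346 CPM) in the vector control library. Its log2 ratio was -0.73 (interval -0.79 to -0.67), which is 1.66-fold lower. Of the deeply read genes, 32 were at or below this value, NFE2L2 included. KEAP1 had 1886 reads (95.7 CPM) in the PRMT5 overexpression library and 1170 reads (82.0 CPM) in the vector control library, log2 ratio 0.22 (interval 0.12 to 0.33). For each KEAP1 read there were thus 2.18 NFE2L2 reads in the PRMT5 overexpression library and 4.22 in the vector control library, a ratio that no scaling of the libraries changes. SQSTM1, the autophagy receptor p62 that binds KEAP1, had 7219 reads (366 CPM) in the PRMT5 overexpression library and 5363 reads (376 CPM) in the vector control library, log2 ratio -0.04 (interval -0.09 to 0.01). Summed with exon-sharing genes on the other strand it was at 0.05.

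NFE2L2 (ENSG00000116044) spans 177227595 to 177392697 on chromosome 2 of GRCh38, minus strand. It shares exon bases with AC019080.1 on its own strand, which had 226 reads in the PRMT5 overexpression library and 151 in the vector control library. On the other strand it shares 54 bases with AGPS, which had 3067 reads in the PRMT5 overexpression library and 2222 in the vector control library. No source used here says whether reads were counted by strand. NFE2L2 was at -0.44 summed with all its exon-sharing genes, a sum that takes in every AGPS read, and at -0.70 summed with AC019080.1 alone. None of its sampled transcript stretches occurred in genes that share no exon with it.

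The DNA-binding partners of NRF2 are no members and come from the lists of other pathway genes. MAFF had 96 reads (4.87 CPM) in the PRMT5 overexpression library and 210 reads (14.7 CPM) in the vector control library, log2 ratio -1.58 (interval -1.96 to -1.24). MAFG had 644 reads (32.7 CPM) in the PRMT5 overexpression library and 1057 reads (74.1 CPM) in the vector control library, log2 ratio -1.18 (interval -1.33 to -1.04). It shares 105 exon bases with SIRT7, which had 761 reads in the PRMT5 overexpression library and 545 in the vector control library. Summed with its exon-sharing genes MAFG was at -0.65, a sum that takes in every SIRT7 read. MAFK, the remaining small MAF gene, had 1946 reads (98.7 CPM) under PRMT5 overexpression against 1321 reads (92.6 CPM) in the control and was at 0.09 (interval -0.01 to 0.19). The small MAF genes thus differed unequally, with 0.331 MAFG reads per MAFK read in the PRMT5 overexpression library and 0.8 in the vector control library. BACH1, a repressor that competes for the same elements, was at -0.11 (interval -0.24 to 0.02), and CUL3 at -0.01 (interval -0.17 to 0.14). NFE2L1, a relative of NFE2L2, had 8459 reads (429 CPM) under PRMT5 overexpression against 6706 reads (470.3 CPM) in the control and was at -0.13, and GSK3B, a kinase that marks NRF2 for degradation, was at 0.17. Of the 13 regulators and partners listed, MAFF and MAFG were 1.5-fold or more lower, as were 5.33% of all genes, and none was 1.5-fold or more higher, as were 7.06% of all genes.

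**Figure D2:**
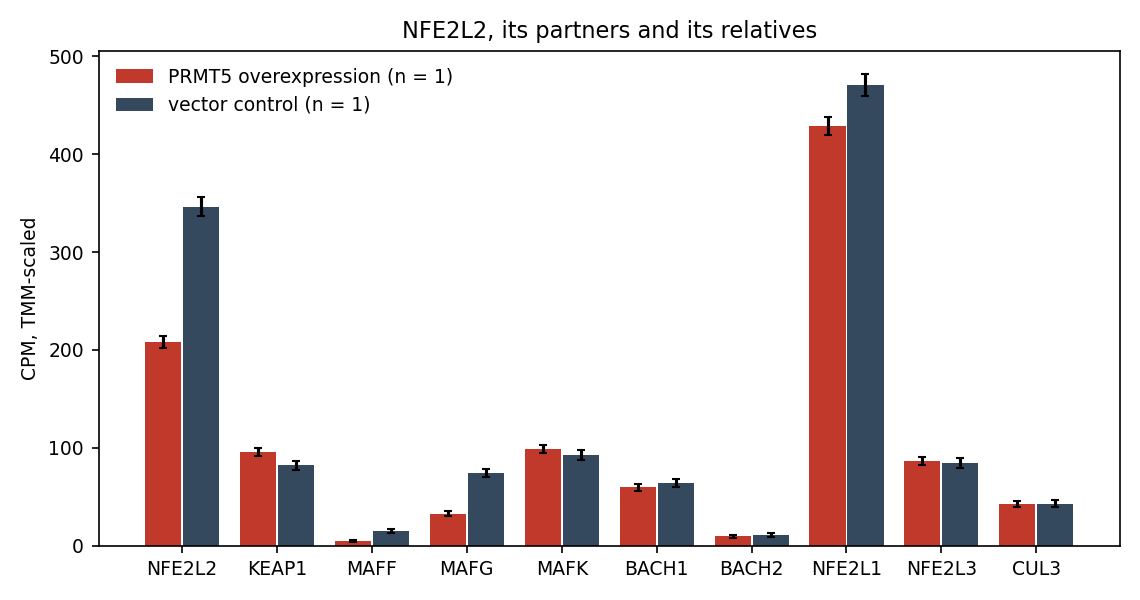
TMM-scaled CPM of NFE2L2, KEAP1, the small MAF genes, BACH1, BACH2, NFE2L1, NFE2L3 and CUL3 in the PRMT5 overexpression library (red, left bar of each pair) and the vector control library (dark, right bar), with 95% exact Poisson counting intervals (1 library per group). The red bar is well below the dark one for NFE2L2, at 208 against 346 CPM, and for MAFG and MAFF.

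Glutathione synthesis and reduction genes were all above 0 by small amounts, where 52.9% of the deeply read genes were above 0. GCLC, the catalytic subunit of glutamate-cysteine ligase and the rate-limiting enzyme of glutathione synthesis, had 18977 reads (963 CPM) in the PRMT5 overexpression library and 12266 reads (860.2 CPM) in the vector control library, log2 ratio 0.16 (interval 0.13 to 0.20). GCLM, its modifier subunit, had 2604 reads (132 CPM) under PRMT5 overexpression against 1723 reads (121 CPM) in the control, log2 ratio 0.13 (interval 0.04 to 0.22). The subunits kept nearly the same proportion, with 7.29 reads of GCLC for each of GCLM in the PRMT5 overexpression library and 7.12 in the vector control library. GSR, which reduces glutathione disulfide, had 4422 reads (224 CPM) under PRMT5 overexpression against 3039 reads (213 CPM) in the control, log2 ratio 0.07 (interval 0.01 to 0.14). GSS, glutathione synthetase, had 2247 reads (114 CPM) under PRMT5 overexpression against 1583 reads (111 CPM) in the control and was at 0.04, with an interval that includes 0.

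The 3 glutathione peroxidases with enough reads were above 0, each with an interval above 0. The shares among the deeply read genes were 52.9% above 0 and 27.5% with an interval above 0. GPX1, the cytosolic enzyme, had 1954 reads (99.1 CPM) in the PRMT5 overexpression library and 1150 reads (80.6 CPM) in the vector control library, log2 ratio 0.30 (interval 0.19 to 0.40). GPX4, which reduces lipid peroxides and protects from ferroptosis, had 1832 reads (92.9 CPM) under PRMT5 overexpression against 1156 reads (81.1 CPM) in the control, log2 ratio 0.20. GPX2, an epithelial NRF2 target, had 1996 reads (101 CPM) under PRMT5 overexpression against 1298 reads (91.0 CPM) in the control, log2 ratio 0.15. Reads of GPX1 are uncertain, since 21.6% of its sampled stretches occur in other genes, most of them in GPX1P1, which had 71 reads in the PRMT5 overexpression library and 51 in the vector control library. Summed with its pseudogene copies GPX1 was at 0.29.

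Glutathione transferases, which join glutathione to electrophiles, stood near 0. GSTP1 had 29710 reads (1507 CPM) in the PRMT5 overexpression library and 21916 reads (1537 CPM) in the vector control library, log2 ratio -0.03 (interval -0.05 to -0.003). GSTM3 had 4379 reads (222 CPM) under PRMT5 overexpression against 3125 reads (219 CPM) in the control, log2 ratio 0.02. GSTA4 had 346 reads (17.6 CPM) under PRMT5 overexpression against 244 reads (17.1 CPM) in the control and was at 0.04. The microsomal MGST1 had 841 reads (42.7 CPM) under PRMT5 overexpression against 635 reads (44.5 CPM) in the control and was at -0.06. The intervals of GSTM3, GSTA4 and MGST1 include 0.

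In the thioredoxin system the reductase and its substrate differed in direction. TXNRD1, the cytosolic selenoenzyme that reduces thioredoxin, had 8132 reads (413 CPM) in the PRMT5 overexpression library and 7618 reads (534 CPM) in the vector control library, log2 ratio -0.37 (interval -0.42 to -0.33). Of the deeply read genes, 110 were at or below it. TXN, its substrate, had 6342 reads (322 CPM) in the PRMT5 overexpression library and 4004 reads (281 CPM) in the vector control library, log2 ratio 0.20 (interval 0.14 to 0.25). Each TXN read came with 1.28 TXNRD1 reads under PRMT5 overexpression and 1.9 in the control. SRXN1, the sulfiredoxin that repairs overoxidised peroxiredoxins, had 11395 reads (578 CPM) under PRMT5 overexpression against 7536 reads (528 CPM) in the control, log2 ratio 0.13. The mitochondrial TXN2 had 1040 reads (52.8 CPM) under PRMT5 overexpression against 643 reads (45.1 CPM) in the control, log2 ratio 0.23 (interval 0.08 to 0.37). TXNRD2, its reductase, had 492 reads (24.96 CPM) under PRMT5 overexpression against 324 reads (22.7 CPM) in the control and was at 0.14 with an interval that includes 0. TXNRD1 (ENSG00000198431) spans 104215779 to 104350305 on chromosome 12, plus strand, and none of its exon bases lies in another gene with 10 or more reads.

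Peroxiredoxins, which reduce hydrogen peroxide, included the highest member. PRDX1 had 11566 reads (587 CPM) in the PRMT5 overexpression library and 5611 reads (393 CPM) in the vector control library. Its log2 ratio was 0.58 (interval 0.53 to 0.62), or 1.49-fold higher. Of the deeply read genes, 63 were at or above it, PRDX1 included. PRDX2, another cytosolic form, had 2263 reads (115 CPM) under PRMT5 overexpression against 1699 reads (119 CPM) in the control, log2 ratio -0.05 (interval -0.15 to 0.04). There were 5.11 PRDX1 reads per PRDX2 read under PRMT5 overexpression and 3.3 in the control. The mitochondrial PRDX3 had 3494 reads (177 CPM) under PRMT5 overexpression against 2207 reads (155 CPM) in the control, log2 ratio 0.20. PRDX4, of the endoplasmic reticulum, had 961 reads (48.8 CPM) under PRMT5 overexpression against 690 reads (48.4 CPM) in the control and was at 0.01. PRDX5 was at 0.18 and PRDX6 at 0.14, both with intervals above 0. PRDX1 (ENSG00000117450) spans 45511036 to 45523047 on chromosome 1, minus strand. It shares 379 exon bases with MMACHC on the other strand, and was at 0.56 summed with it.

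Detoxification genes were slightly above 0 apart from CBR1, whose promoter match is printed above. Among all genes 50.4% were above 0. CBR1, a carbonyl reductase, had 1697 reads (86.1 CPM) in the PRMT5 overexpression library and 2355 reads (165 CPM) in the vector control library. It was the lowest member, with log2 ratio -0.94 (interval -1.03 to -0.85), which is 1.92-fold lower. Of the deeply read genes, 21 were at or below it. CBR1 (ENSG00000159228) spans 36069941 to 36073166 on chromosome 21, plus strand. It was at -0.81 summed with AP000688.1, which shares exon bases on the other strand. CBR3, its paralogue and no member, had 189 reads in the PRMT5 overexpression library and 115 in the vector control library. The log2 ratio of CBR3 was 0.25 with an interval that includes 0, and -0.05 summed with an exon-sharing gene.

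NQO1, the quinone reductase often used as a readout of NRF2, had 4739 reads (240.4 CPM) in the PRMT5 overexpression library and 3079 reads (216 CPM) in the vector control library, log2 ratio 0.15 (interval 0.09 to 0.22). HMOX1, which breaks down haem, was sparse, with 132 reads (6.70 CPM) in the PRMT5 overexpression library and 84 reads (5.89 CPM) in the vector control library, log2 ratio 0.18 (interval -0.22 to 0.60). UGDH, which makes UDP-glucuronate, had 3158 reads (160.2 CPM) under PRMT5 overexpression against 2117 reads (148 CPM) in the control, log2 ratio 0.11. EPHX1, the microsomal epoxide hydrolase, had 2723 reads (138 CPM) under PRMT5 overexpression against 1790 reads (126 CPM) in the control, log2 ratio 0.14. It shares 28 exon bases with TMEM63A, which had 1997 reads under PRMT5 overexpression against 1608 in the control. EPHX1 was at 0.01 summed with all of these.

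Aldo-keto reductases carried the most reads of any role. AKR1C2 had 96858 reads (4913 CPM) in the PRMT5 overexpression library and 60745 reads (4259.8 CPM) in the vector control library, log2 ratio 0.21 (interval 0.19 to 0.22). AKR1C1 had 30344 reads (1539 CPM) under PRMT5 overexpression against 18317 reads (1284 CPM) in the control, log2 ratio 0.26. AKR1C3, which also acts on steroids and prostaglandins, had 12630 reads (641 CPM) under PRMT5 overexpression against 7480 reads (525 CPM) in the control, log2 ratio 0.29. Reads of these near copies are uncertain, since 51.2% of the sampled AKR1C2 stretches occur in AKR1C1 and 28.5% of the AKR1C1 stretches in AKR1C2. Summed, AKR1C1, AKR1C2 and AKR1C3 had 7093 CPM under PRMT5 overexpression and 6069 CPM in the control, log2 ratio 0.23 (interval 0.21 to 0.24). AKR1B10 had 1382 reads (70.1 CPM) under PRMT5 overexpression against 903 reads (63.3 CPM) in the control, log2 ratio 0.15, with 18.1% of its stretches found in other genes. AKR1B1, aldose reductase, had 2144 reads (109 CPM) under PRMT5 overexpression against 1671 reads (117 CPM) in the control, log2 ratio -0.11 (interval -0.20 to -0.01).

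The pentose phosphate genes, which supply NADPH and ribose, were all above 0, each with an interval above 0. Among the deeply read genes 52.9% were above 0 and 27.5% had such an interval. TALDO1, transaldolase, had 3901 reads (198 CPM) in the PRMT5 overexpression library and 2374 reads (166 CPM) in the vector control library, log2 ratio 0.25. PGD, 6-phosphogluconate dehydrogenase, had 14005 reads (710.5 CPM) under PRMT5 overexpression against 9048 reads (634 CPM) in the control, log2 ratio 0.16. TKT, transketolase, had 24052 reads (1220.1 CPM) under PRMT5 overexpression against 16418 reads (1151 CPM) in the control, log2 ratio 0.08.

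Efflux transporters carry glutathione conjugates and drugs out of the cell. ABCC3 had 1378 reads (69.9 CPM) in the PRMT5 overexpression library and 827 reads (58.0 CPM) in the vector control library, log2 ratio 0.27 (interval 0.14 to 0.40). ABCC1 had 5714 reads (289.9 CPM) under PRMT5 overexpression against 3850 reads (270.0 CPM) in the control, log2 ratio 0.10 (interval 0.04 to 0.16). ABCC2 had 164 reads (8.32 CPM) under PRMT5 overexpression against 120 reads (8.42 CPM) in the control, log2 ratio -0.02 (interval -0.36 to 0.34).

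OSGIN1, an oxidative-stress induced growth inhibitor, was the second highest member. It had 2235 reads (113 CPM) in the PRMT5 overexpression library and 1225 reads (85.9 CPM) in the vector control library, log2 ratio 0.40 (interval 0.30 to 0.50), and 127 deeply read genes were at or above it. OSGIN1 (ENSG00000140961) spans 83948282 to 83966332 on chromosome 16, plus strand. The classical scavengers of superoxide and peroxide were nearer 0. SOD1 had 2018 reads (102 CPM) under PRMT5 overexpression against 1487 reads (104 CPM) in the control, log2 ratio -0.03. SOD2, its mitochondrial counterpart, had 937 reads (47.5 CPM) under PRMT5 overexpression against 638 reads (44.7 CPM) in the control and was at 0.09. WTAP shares 298 exon bases with it and had 1113 reads under PRMT5 overexpression against 899 in the control. SOD2 was at -0.05 summed with WTAP. Both superoxide dismutase intervals include 0. CAT, catalase, had 2269 reads (115 CPM) under PRMT5 overexpression against 1771 reads (124 CPM) in the control, log2 ratio -0.11 (interval -0.20 to -0.02).

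By level per kilobase of merged exons, the members spanned a wide range that was alike in both libraries. GSTP1 stood at 789 CPM per kilobase under PRMT5 overexpression and 804 in the control. AKR1C2 followed at 760.5 CPM per kilobase under PRMT5 overexpression and 659 in the control. Next came PRDX1 at 385 CPM per kilobase under PRMT5 overexpression and 259 in the control, and PRDX5 at 328 CPM per kilobase under PRMT5 overexpression and 289.7 in the control. PRDX1 was thus above PRDX5 under PRMT5 overexpression and below it in the control. The low end held HMOX1 at 2.78 CPM per kilobase under PRMT5 overexpression and 2.45 in the control, and ABCC2 at 1.06 CPM per kilobase under PRMT5 overexpression and 1.07 in the control. The deposited FPKM put AKR1C2 first, at 521 under PRMT5 overexpression and 461 in the control, ahead of GSTP1 at 320.2 and 333 in the same order of libraries.

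**Figure D3:**
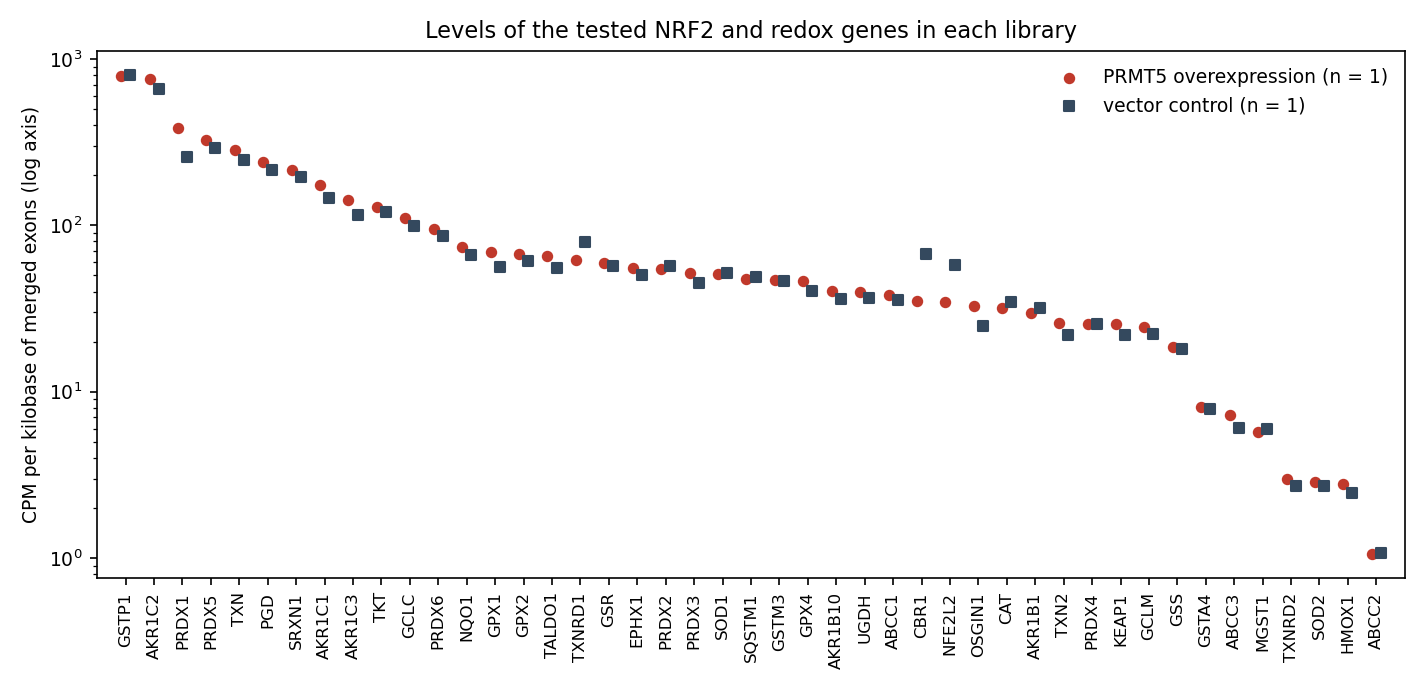
Levels of the 45 tested members in CPM per kilobase of merged exons on a log axis, in the PRMT5 overexpression library (red circles) and the vector control library (dark squares), 1 library each, ordered by the level under PRMT5 overexpression. The pairs lie close together over the whole range, and the circle is clearly below the square for NFE2L2 and CBR1 and above it for PRDX1.

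Members marked as NRF2 targets were set beside the rest by an assignment made here, with earlier results of these data known. The rest held NFE2L2, KEAP1, the glutathione transferases, CAT, GPX1 and GPX4 among others, and another assignment could move some genes across. The 4 glutathione transferases, from -0.06 to 0.04, were left among the rest although GSTP1 held TGACTCAGC. The medians of both sets thus depend on this assignment. Of the 25 marked targets 21 were above 0, with a median log2 ratio of 0.15, and 20 had an interval above 0. The shares above 0 were 50.4% of all genes and 52.9% of deeply read genes, and the shares with an interval above 0 were 14.3% and 27.5% in the same order. Of the other 20 tested members, 13 were above 0, with a median of 0.04, and 7 had an interval above 0. The difference between these medians was not tested. Transcript length moved with log2 ratio: of the deeply read genes, the class with the shortest merged exons had a median of 0.06 with 64.9% above 0, and the class with the longest a median of -0.02 with 42.6% above 0. Of the 37 deeply read members 24 fell in the short class, with a median of 0.15 and 18 above 0, 7 in the middle class, with a median of 0.04, and 6 in the long class, with a median of 0.13. The part of length in the members' values was not tested.

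The other genes of the pathway were listed by function. Of 105 genes listed, 104 were in the table and 96 had enough reads. Their median log2 ratio was 0.03, and 53, or 55.2%, were above 0, near the 50.4% of all genes. Of these 96, 2 were 1.5-fold or more higher, where 7.06% of all genes were, and 5 were lower, where 5.33% were. Among 29 NRF2 targets outside the members, 18, or 62.1%, were above 0, with a median of 0.05, where 50.4% of all genes and 52.9% of deeply read genes were above 0. FTL, which encodes the ferritin light chain, had 58554 reads (2970.4 CPM) under PRMT5 overexpression against 39253 reads (2753 CPM) in the control, log2 ratio 0.11. FTH1, for the heavy chain, had 25735 reads (1306 CPM) under PRMT5 overexpression against 18139 reads (1272 CPM) in the control, log2 ratio 0.04. BEST1 shares 1267 exon bases with it on the other strand and had 1305 reads under PRMT5 overexpression against 48 in the control. FTH1 was at 0.11 summed with BEST1. SLC7A11, which imports cystine for glutathione synthesis, had 16909 reads (858 CPM) under PRMT5 overexpression against 13214 reads (927 CPM) in the control, log2 ratio -0.11 (interval -0.14 to -0.08). UGT1A1 was at 1.07 from 204 reads in the PRMT5 overexpression library and 70 in the vector control library, but shares exons with the other UGT1A genes and was at 0.08 summed with them. CES1 was at -0.91 (interval -2.40 to 0.34) from 9 reads in the PRMT5 overexpression library and 13 in the vector control library.

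Of 26 other glutathione genes 14, or 53.8%, were above 0, near the 50.4% of all genes, with a median of 0.003. SLC3A2, the partner subunit of the cystine transporter, was at 0.002, the glyoxalase GLO1 at 0.11 and the cyclotransferase GGCT at 0.09. GGT1, which breaks down extracellular glutathione, was at -0.66 (interval -1.42 to 0.05) from 31 reads in the PRMT5 overexpression library and 36 in the vector control library. It was at 0.12 summed with SNRPD3, whose 1746 reads in the PRMT5 overexpression library and 1143 in the vector control library outweigh its own. The 6 measured pentose phosphate genes outside the members had a median of 0.07, with H6PD at 0.04, PGLS at 0.19 and RPE at -0.07.

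**Figure D4:**
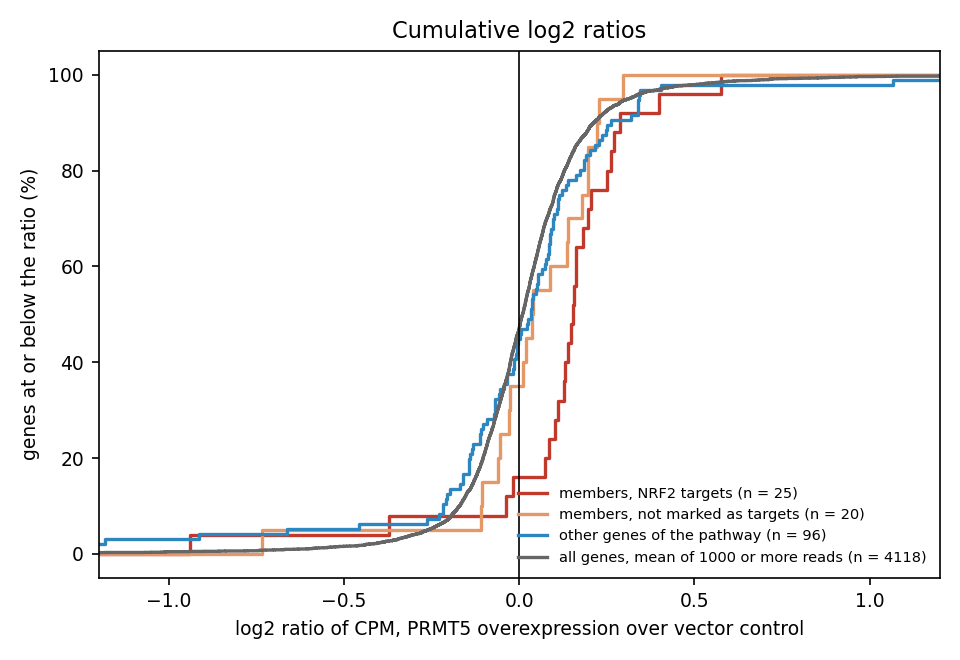
Cumulative share of genes at or below each log2 ratio of CPM, PRMT5 overexpression over vector control, from 1 library per group. Curves are for 25 members marked here as NRF2 targets (red), the other 20 tested members (orange), 96 other genes of the pathway (blue) and 4118 deeply read genes (grey). The red curve lies right of the others around its median of 0.15, while the blue curve stays near the grey one.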

How the data were processed

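RNA of 1 library per group was measured, and groups follow the genotype label. Per the submitters' processing notes, CASAVA 1.8, HISAT2 2.1.0, StringTie 1.3.4b and edgeR were used on GRCh38 (hg38), with no roles stated. The authors deposited counts and FPKM for each gene in both libraries. Here counts were summed by symbol and filtered at 10 reads in either library. TMM factors (edgeR 4.0.16, R 4.3.3) were 0.990 for PRMT5 overexpression and 1.01 for vector control. Log2 ratios carry a prior count of 1, and intervals are 95% Clopper-Pearson. Reads are not independent molecules. The procedure was tested on simulated data. That simulation held counting error only, so it cannot speak to variation between libraries. Exon overlaps, merged exons and shared stretches came from GENCODE release 29. A sum with exon-sharing genes takes in all their reads, however few bases are shared. Stretches of 50 bases were sampled every 10 bases of each member's longest coding transcript and sought in genes that share no exon with it.

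Members, lists and roles were chosen with earlier results of these data known. By rule, values are given for NFE2L2, KEAP1, PRMT5, members past 1.5-fold and the 2 highest and 2 lowest of each role, and in the pathway lists for genes past 1.5-fold and the 3 most read. BACH1, CUL3 and CBR3 were added after their values were seen. The promoter display also left the rule, which named only the highest members with a match. All matches were printed instead, and the longer CBR1 stretch was chosen because CBR1 was the lowest member.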

Additional observations from a re-analysis of the deposited data

How the results depend on the processing

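Depth limited HMOX1, ABCC2 and GPX3 most. Recalculations used DESeq2 1.42.0 size factors, total counts, prior counts of 0.1 and 5, no read minimum, a minimum of 50 reads, the most-read row per symbol, sums with exon-sharing genes or pseudogene copies, deposited FPKM with a pseudocount of 1, and protein-coding genes alone. Across these the members' median stayed between 0.0989 and 0.158 and the number above 0 between 32 and 35. Of 494 member values, 482 stayed within their counting intervals and 12 moved. Many of the 494 could not move, so this count does not measure stability. The read minimums and the most-read row left every tested member's value as it was. Sums did the same for members without exon-sharing genes or pseudogene copies. The number of members 1.5-fold higher became 1 with DESeq2 size factors, where PRDX1 was at 0.599, and 1 with protein-coding genes, where it was at 0.586. The number 1.5-fold lower became 1 with sums over exon-sharing genes, which put the regulators' median at 0.0529, and 0 at 2-fold. Chosen after seeing the data were AKR1C1, AKR1C2 and AKR1C3 as 1 member, NFE2L2 summed with AC019080.1, a mean of 1000 or more reads, and leaving out NFE2L2 and CBR1, where the number lower is 0 by construction. No paired analysis was possible because a single library stands for either group, which also leaves no replicate to leave out.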

Other observations

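Thiol repair genes and selenoproteins outside the members were also read. Of 22 with enough reads 11 were above 0, a share near the 50.4% of all genes, with a median log2 ratio of 0.01. SESN3, a sestrin linked to stress signalling, was the most read of them, with 53799 reads (2729 CPM) in the PRMT5 overexpression library and 42992 reads (3015 CPM) in the vector control library, log2 ratio -0.14 (interval -0.16 to -0.13). TXNDC5, a thioredoxin-like protein of the endoplasmic reticulum, was at 0.10, and PARK7, which encodes the redox sensor DJ-1, was at 0.10. MSRA, a methionine sulfoxide reductase, had 11 reads in the PRMT5 overexpression library and 2 in the vector control library, log2 ratio 1.63 (interval -0.20 to 5.21). SELENOP, the selenium carrier of plasma, had 0 reads in the PRMT5 overexpression library and 11 in the vector control library, and the counting interval of its log2 ratio ends at -1.79. Some sparse fibroblast markers were lower too: DCN had 0 reads in the PRMT5 overexpression library and 12 in the vector control library, COL3A1 had 2 reads in the PRMT5 overexpression library and 11 in the vector control library, and COL1A2 had 7 reads in the PRMT5 overexpression library and 26 in the vector control library. Others were not: PDGFRB had 29 reads in the PRMT5 overexpression library and 25 in the vector control library, log2 ratio -0.24 (interval -1.08 to 0.58). PDGFRA had 3 reads in each library. Whether the RNA behind these markers bears on the value of SELENOP was not tested.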
